A study of Mus musculus with 10 samples.

Results

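The gene set comprised 43 genes for lysosome acidification, the lysosomal membrane and its regulation. It holds 18 subunits and accessory proteins of the vacuolar proton ATPase (V-ATPase), 15 other lysosomal membrane proteins and 10 regulators, of which 5 are Ragulator subunits and 5 are the MiT/TFE transcription factors with folliculin. The members were taken by gene name from a list written by hand, and all 43 were found among the 55487 genes of the count table. Male C57BL/6 mice aged 8 to 12 weeks with a reporter allele from which some cells make yellow fluorescent protein (YFP) had experimental autoimmune encephalomyelitis (EAE) after immunization with a myelin oligodendrocyte glycoprotein peptide in complete Freund’s adjuvant and pertussis toxin. At peak disease, viable CD45+CX3CR1+ cells without CD3 or Ly6G were sorted from the spinal cord into 200000 YFP+ and 100000 YFP- cells per animal, and both groups carried the same allele and treatment. Bulk RNA-seq of 5 YFP+ and 5 YFP- libraries from the same 5 animals (m2, m6, m234, m235 and m236) was compared. The number of sorted cells differed with the group, so that its part cannot be told apart from that of the sort.

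Lysosomes of phagocytes degrade what the cell has taken up, which in EAE lesions includes myelin. The V-ATPase acidifies them: its cytosolic V1 sector hydrolyses ATP and turns a rotor, and its membrane V0 sector moves protons into the lumen. MiT/TFE factors (*Tfeb*, *Tfe3*, *Mitf*, *Tfec*) bind E-box motifs in promoters of many lysosomal genes, and the Ragulator complex on the lysosomal membrane anchors the Rag GTPases through which amino acids activate mTORC1, the kinase that keeps TFEB and TFE3 in the cytosol.

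Library totals were 28870482, 31235168, 31673192, 33826355 and 31112109 counts in YFP+ cells and 30613655, 35455643, 8396863, 28212174 and 29727408 counts in YFP- cells of m2, m6, m234, m235 and m236, and all library values below are given in this order of animals. Levels are CPM, the counts of a gene relative to library size, with library sizes scaled by trimmed means (TMM), and levels of different genes are compared as CPM per kilobase of merged exons (RPKM). Positive log2 fold changes are higher in YFP+ cells. The YFP- library of m234 stood apart. It was the shallowest, with 8.50 counts per CPM against at least 28.0 in the others, and the summed level of 9 microglia markers was 1493 CPM in it against 219 to 611 CPM in the other YFP- libraries. Counts of members over the whole set and by class are therefore also given without this library. In each animal, mitochondrial genes made up a larger share of counts in YFP+ cells (0.889%, 0.732%, 0.755%, 0.781% and 0.878% in the YFP+ libraries and 0.751%, 0.702%, 0.730%, 0.768% and 0.864% in the YFP- libraries) and ribosomal protein genes a smaller share (2.15%, 2.41%, 2.58%, 1.98% and 2.42% in the YFP+ libraries and 2.59%, 2.77%, 2.95%, 2.44% and 2.74% in the YFP- libraries). The part of these shares in the results below was not tested.

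A filter on low counts (CPM above 1 in 3 or more libraries) kept 13740 genes and all 43 members. At an FDR below 0.05 in the quasi-likelihood test of edgeR, 937 genes were higher in YFP+ cells and 845 lower. Among the members, 12 were higher (27.9%), against 6.82% of all tested genes, and 2 were lower, against 6.15%. In each of these 14, all 5 animals differed in the direction of the call. The animal as a replicate block (paired fit) raised the counts to 21 members higher, against 16.8% of all tested genes, and 3 lower, against 18.3%, and all 14 members called without the block were called with it (FDR of at most 0.0145). The ranges of the 2 groups did not overlap in 8 members with more in YFP+ cells, against 6.15% of all tested genes, nor in 1 member with less, against 5.2%. Groups of fewer libraries overlap less often, so shares of all tested genes are given for the same libraries. The first count was 15 without m234 in YFP+ or in all cells, against 8.95% and 10.8% of all tested genes. The second was 2 without m234 or m235 in YFP+ cells, m235 or m236 in YFP- cells, or m234 or m236 in all cells (against 6.54% to 9.51%), and 3 without m235 in all cells (against 9.28%). With an absolute log2 fold change above 1 as a further limit, 1 member was higher, against 0.56% of all tested genes. None was lower, against 0.888%. With no limit on the fold change, 18 members were higher and 3 lower at an unadjusted p below 0.05, against 2062 and 2055 of the 13740 tested genes. DESeq2 called 16 members higher and 2 lower, against 9.29% and 9.51%, and limma-trend 12 and 1, against 6.65% and 6.12%. Members are abundant genes. Among the 5868 tested genes with a mean level at or above that of the lowest member, *Slc38a9* at 26.5 CPM, 8.84% were higher and 9.02% lower. Leaving out libraries moved these counts by more than 1.5 times in the cases that follow. Without m2 in YFP+ cells, 572 genes were higher and 481 lower, with 8 and 1 members, and m6 in YFP+ cells left 518 genes and 1 member lower when dropped. Dropping m236 in YFP+ cells gave 7 members higher and 1 lower, as did dropping m2 or m6 in YFP- cells, with 561 lower genes in the case of m2. Only 1 member was lower without m235 in YFP+ or m236 in YFP- cells. With whole animals dropped, 4 members were higher and 0 lower without m2 or m6, 7 and 0 without m236, 10 and 1 without m235, and 14 and 2 without m234. Of all tested genes, 372 were then higher and 316 lower without m2, 360.0 and 284 without m6, and 500.0 and 412 without m236. Where only the shallow YFP- library of m234 was dropped, 11 members were higher and 2 lower, and 995 and 783 genes were called in all. Library sizes from total counts alone gave 7 members higher and 2 lower, with 701 higher and 1282 lower of all tested genes. In bulk samples, fewer cells of a type and less RNA per cell cannot be told apart.

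By class, 4 of 18 V-ATPase members were higher and 1 lower, with a median log2 fold change of 0.086, 6 of 15 membrane proteins were higher and 1 lower (median 0.15), and 2 of 10 regulators were higher and none lower (median 0.12). No regulator was lower at an unadjusted p below 0.05 or with DESeq2 or limma-trend either. The median over all tested genes was −0.0022. With the block the counts were 8 higher and 1 lower V-ATPase members, 8 and 2 membrane proteins, and 5 and 0 regulators. Without the YFP- library of m234, 3 V-ATPase members were higher and 1 lower, with 6 and 1 membrane proteins and 2 and 0 regulators. *Atp6v1e1*, *Ostm1* and *Lamtor1* then lost the call and *Cd63* and *Lamtor2* gained it. The groups did not overlap in 8 higher and 1 lower member in that case too, against 7.80% and 6.67% of all tested genes. The log2 fold change was above 0 in 33 of the 43 members, or 76.7%, against 49.6% of all tested genes. Apart from *Atp6v0d2*, no member had an absolute log2 fold change above the 0.58 of *Cd68*. *Atp6v1a*, *Atp6v0d2*, *Cd68* and *Slc36a1* were called in all 15 fits that left out a library or an animal and in all 7 fits with another scaling, tool or filter. The other 10 lost their call in at least 1 of the 15, and their values without each such library stand beside them below.

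**Figure D1:**
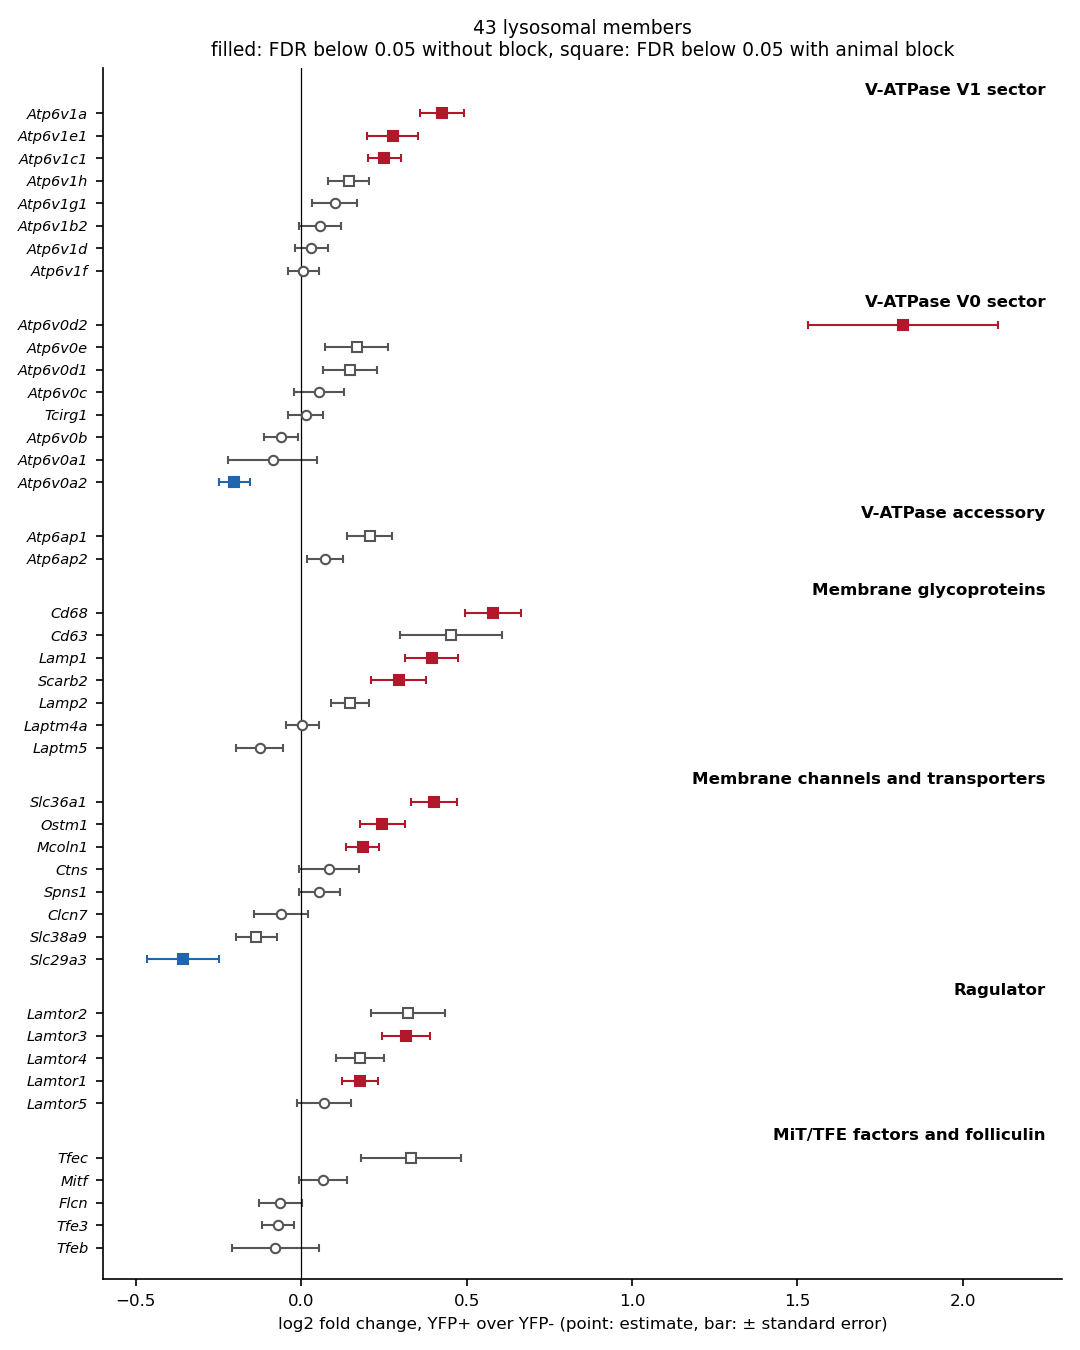
Log2 fold change of every member (x axis, YFP+ over YFP-, bars are standard errors) by role, from edgeR without a block. Filled points passed an FDR of 0.05 (red higher, blue lower), and squares passed it with the animal as a block. *Atp6v0d2*, at 1.82, lies apart from all others.

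The V1 sector showed 3 of its 8 members higher in YFP+ cells and none lower, and none was lower at an unadjusted p below 0.05 or with DESeq2 or limma-trend. *Atp6v1a*, subunit A, which holds the catalytic site for ATP, lies on chromosome 16 (44085402 to 44139705, reverse strand). It was at 358, 352, 314, 332 and 359 CPM in the YFP+ libraries and 257, 269, 221, 265 and 264 CPM in the YFP- libraries. All 5 YFP+ libraries lay above all 5 YFP- libraries (log2 fold change 0.42, SE 0.0661, edgeR FDR 0.00216). *Atp6v1c1*, subunit C, which links the V1 and V0 sectors and is released when they come apart, was at 165, 163, 151, 168 and 153 CPM in the YFP+ libraries and 134, 127, 136, 135 and 141 CPM in the YFP- libraries. Its groups did not overlap either (log2 fold change 0.25, SE 0.0502, edgeR FDR 0.00810), although its edgeR FDR was 0.0556 without both libraries of m2 and 0.0641 without both of m6. *Atp6v1e1*, a subunit of the peripheral stalk that holds the catalytic head in place, was at 225, 215, 195, 228 and 208 CPM in the YFP+ libraries and 168, 173, 152, 203 and 187 CPM in the YFP- libraries. The YFP+ library of m234 lay below the YFP- library of m235, so that the groups overlapped, but each animal had more in YFP+ cells (log2 fold change 0.28, SE 0.0770, edgeR FDR 0.0356). Its edgeR FDR was 0.0517 to 0.167 without m2, m6, m235 or m236 in YFP+ cells, m2, m6 or m234 in YFP- cells, or all cells of m2, m6 or m236, 0.0508 with total counts alone, and 0.00120 with the block.

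The other 5 V1 members had log2 fold changes of 0.0053 to 0.14 and overlapping groups. Among them is *Atp6v1b2*, subunit B, which forms the catalytic head together with subunit A. Its level was 127 ± 7.60 RPKM (SD, n = 5) in YFP+ and 122 ± 8.85 RPKM (SD, n = 5) in YFP- cells (log2 fold change 0.057, SE 0.0647, edgeR FDR 0.596), beside 80.7 ± 4.66 RPKM and 60.1 ± 4.59 RPKM (SD, n = 5) for *Atp6v1a*. Whether the fold changes of the A and B subunits differ was not tested. The rotor subunits *Atp6v1d* (0.030) and *Atp6v1f* (0.0053) had changes near 0 whose sign turned with total counts alone, and *Atp6v1g1* of the stalk (0.10, edgeR FDR 0.341) was not called with or without the block. *Atp6v1h*, a regulatory subunit, was not called (0.14, edgeR FDR 0.144), but was with the block (edgeR FDR 0.00859) and without both libraries of m234 (edgeR FDR 0.0462). Reads of *Atp6v1g1* and *Atp6v1f* are uncertain, since 19.2% and 11.2% of their 50-base stretches also occur in other transcripts. For *Atp6v1g1* this is foremost *Gm13453*, at 43.4 CPM in YFP+ and 42.9 CPM in YFP- cells, beside 72.2 and 67.1 CPM for *Atp6v1g1*.

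In the V0 sector, 1 of 8 members was higher and 1 lower. *Atp6v0d2*, on chromosome 4 (19876841 to 19922605, reverse strand), encodes an isoform of the d subunit that caps the proton-moving ring, and is known from osteoclasts and macrophages. It was at 118, 64.6, 43.8, 73.6 and 71.3 CPM in the YFP+ libraries and 26.7, 17.8, 8.71, 28.4 and 20.8 CPM in the YFP- libraries. The lowest YFP+ library, that of m234, lay above the highest YFP- library, that of m235, and within animals the ratio of YFP+ to YFP- was 4.42, 3.63, 5.03, 2.59 and 3.43. This was the largest change among the members, 3.53-fold (log2 fold change 1.82, SE 0.288, edgeR FDR 0.00238). The widely expressed isoform *Atp6v0d1* was at 190.2, 190.2, 158, 203 and 191 CPM in the YFP+ libraries and 171, 173, 139.7, 181 and 177 CPM in the YFP- libraries, with overlapping groups (log2 fold change 0.15, SE 0.0824, edgeR FDR 0.254). It was called only with the block (edgeR FDR 0.00560). Per kilobase, *Atp6v0d1* was the more abundant isoform in every library. *Atp6v0d2* made up 28.5%, 17.9%, 15.1%, 18.8% and 19.3% of the summed d isoforms in the YFP+ libraries and 9.13%, 6.19%, 3.85%, 9.16% and 6.99% in the YFP- libraries. All YFP+ libraries had a larger share than any YFP- library.

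Of the 3 a subunits, which anchor the complex and direct it to its compartment, *Atp6v0a2*, the isoform of the Golgi and endosomes, was lower in YFP+ cells. It was at 83.1, 80.8, 82.3, 84.1 and 81.0 CPM in the YFP+ libraries and 98.7, 93.3, 101, 89.5 and 91.5 CPM in the YFP- libraries. All YFP+ libraries lay below all YFP- libraries (log2 fold change −0.20, SE 0.0464, edgeR FDR 0.0156). Its edgeR FDR was 0.0822, 0.0808 and 0.0532 without both libraries of m2, m6 and m236, and 0.0770 without a filter on low counts. An antisense gene, *4930404A12Rik*, overlaps 12.4% of its exon bases and had a level of 0 in all libraries. *Tcirg1*, the a3 isoform of lysosomes and osteoclasts, made up 87.5% ± 1.44 (SD, n = 5) of the summed a isoforms per kilobase in YFP+ and 86.3% ± 1.51 (SD, n = 5) in YFP- cells. *Atp6v0a2* made up 5.61% ± 0.165 and 6.43% ± 0.280 (SD, n = 5). The fold changes of *Tcirg1* (0.013, edgeR FDR 0.903) and *Atp6v0a1* (−0.087, edgeR FDR 0.706) did not pass with or without the block.

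The ring subunit *Atp6v0c*, the most abundant V-ATPase member per kilobase, was at 738, 799.8, 651, 791 and 715 CPM in the YFP+ libraries and 690.3, 735, 628, 772 and 731 CPM in the YFP- libraries. The groups overlapped, and 587 ± 48.4 RPKM in YFP+ and 566 ± 43.4 RPKM in YFP- cells (SD, n = 5) differed by less than the spread between replicates (log2 fold change 0.054, SE 0.0752, edgeR FDR 0.668). Its reads are uncertain, since 10.8% of its 50-base stretches occur in other transcripts, foremost the pseudogene *Atp6v0c-ps2* at 36.1 and 36.8 CPM. Another ring subunit, *Atp6v0b* (−0.061, edgeR FDR 0.464), was not called in either fit, and *Atp6v0e* (0.17, edgeR FDR 0.263) was called with the block only (edgeR FDR 0.0108). Of the accessory proteins, *Atp6ap1*, which takes part in assembly and trafficking of the pump, was higher in each animal but not called (log2 fold change 0.21, SE 0.0686, edgeR FDR 0.0684). It was called with the block (edgeR FDR 0.00329), with DESeq2 (adjusted p 0.0254) and without the YFP+ library of m234 (edgeR FDR 0.0447). *Atp6ap2*, the prorenin receptor, was not called in either fit (0.072, edgeR FDR 0.399).

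**Figure D2:**
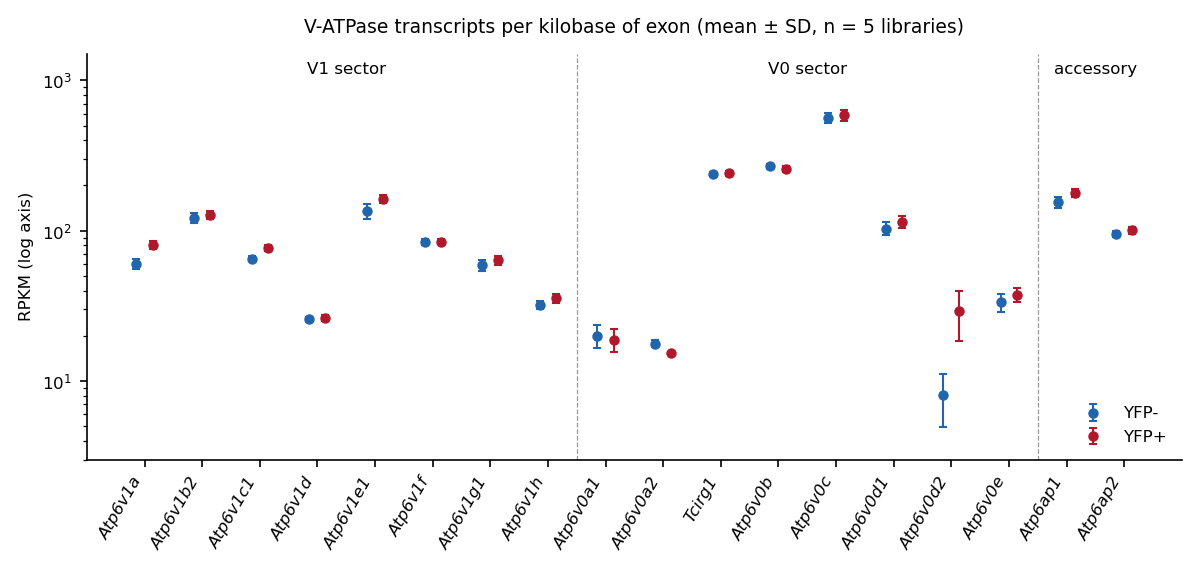
Level of the 18 V-ATPase members per kilobase of merged exons (RPKM, log axis) as mean ± SD of 5 YFP+ (red) and 5 YFP- (blue) libraries. *Atp6v0d2*, the lowest point in YFP- cells at 8.07 ± 3.10 RPKM, was at 29.2 ± 10.7 RPKM in YFP+ cells.

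Among 18 other V-ATPase isoforms and assembly factors, 11 were tested, and 2 were higher and none lower (5 and 1 with the block), with a median log2 fold change of 0.16. At an unadjusted p below 0.05, 1 was lower, and DESeq2 and limma-trend called 1 and 0 lower. *Rogdi* was called lower when m235 was dropped in YFP- or in all cells, and 4 genes were higher without m234 in all cells. The isoforms *Atp6v0a4*, *Atp6v1b1* and *Atp6v1g3*, which are known from kidney and other specialised epithelia, had 0 counts in all libraries, which allows up to 0.0834 to 0.107 CPM in 9 libraries and 0.353 CPM in the YFP- library of m234 (3 counts, counting error only), and *Atp6v0e2*, *Atp6v1c2*, *Atp6v1e2* and *Rnasek* did not pass the filter. *Dmxl1* and *Wdr7*, which belong to the complex that helps V1 to join V0, were the 2 genes called. *Dmxl1* was at 80.1, 80.3, 83.3, 72.6 and 80.5 CPM in the YFP+ libraries and 65.9, 69.9, 61.2, 62.4 and 61.5 CPM in the YFP- libraries (log2 fold change 0.30, SE 0.0550, edgeR FDR 0.00499). *Wdr7* was at 73.3, 62.9, 58.2, 67.3 and 65.7 CPM in the YFP+ libraries and 52.9, 51.8, 53.7, 51.4 and 50.4 CPM in the YFP- libraries (log2 fold change 0.33, SE 0.0604, edgeR FDR 0.00499). In both genes all YFP+ libraries lay above all YFP- libraries, and both were called in all 15 fits with a library or animal left out. *Dmxl2* of the same complex was the most abundant of the list per kilobase and was called only with the block (0.17, edgeR FDR 0.135, 0.0355 with the block). *Rogdi* had the largest absolute change and was called with DESeq2 and with the block (−0.58, edgeR FDR 0.0819, 5.54e-04 with the block).

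The membrane glycoproteins showed 3 of 7 members higher in YFP+ cells and none lower, and none was lower at an unadjusted p below 0.05 or with DESeq2 or limma-trend. *Cd68*, a glycoprotein of macrophage endosomes and lysosomes, lies on chromosome 11 (69664213 to 69666153, reverse strand). It was at 893, 919, 824, 1025 and 955 CPM in the YFP+ libraries and 568, 608, 541, 666 and 705 CPM in the YFP- libraries. All YFP+ libraries lay above all YFP- libraries, with ratios within animals of 1.57, 1.51, 1.52, 1.54 and 1.35 (log2 fold change 0.58, SE 0.0853, edgeR FDR 0.00155). *Lamp1*, a main component of the lysosomal membrane and on chromosome 8 (13159161 to 13175338, forward strand), was the most abundant membrane protein of the set, with 805 ± 69.5 RPKM (SD, n = 5) in YFP+ and 612 ± 52.3 RPKM (SD, n = 5) in YFP- cells. It was at 1816, 1705, 1612, 1811 and 2026 CPM in the YFP+ libraries and 1287, 1314, 1271, 1399 and 1554 CPM in the YFP- libraries. The groups did not overlap, since the highest YFP- library, that of m236, lay below the lowest YFP+ library, that of m234 (log2 fold change 0.39, SE 0.0800, edgeR FDR 0.00866). Without both libraries of m2 or of m6, its edgeR FDR was 0.0600 or 0.0534.

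*Scarb2* (LIMP-2), which carries β-glucocerebrosidase to the lysosome, was at 341, 303, 309.7, 362 and 395 CPM in the YFP+ libraries and 269, 246, 289, 287 and 304 CPM in the YFP- libraries. The groups overlapped only in that the YFP+ library of m6 lay just below the YFP- library of m236, and each animal had more in YFP+ cells (log2 fold change 0.29, SE 0.0830, edgeR FDR 0.0372). Its edgeR FDR was 0.0707 to 0.149 without m2, m235 or m236 in YFP+ cells, m2 or m6 in YFP- cells, or all cells of m2, m6, m235 or m236, and 7.64e-04 with the block. The call was also lost with total counts alone (edgeR FDR 0.0548). The tetraspanin *Cd63* was at 303, 309, 247, 225 and 345 CPM in the YFP+ libraries and 208, 191, 272, 148 and 227 CPM in the YFP- libraries. In m234 alone the YFP- library was higher, and *Cd63* was not called (log2 fold change 0.45, SE 0.153, edgeR FDR 0.0729). It was called with the block (edgeR FDR 0.00570), with DESeq2, without a filter on low counts, and without the YFP+ library of m235, the YFP- library of m234 or both libraries of m234 (edgeR FDR 0.0469, 0.0263 and 0.0261). Its reads are uncertain, since a pseudogene, *Cd63-ps*, shares sequence with it and 11.1% of its 50-base stretches occur elsewhere. *Cd63-ps* was at 34.9 CPM in YFP+ and 25.2 CPM in YFP- cells, higher in YFP+ cells as was *Cd63*. *Lamp2* was called with the block (edgeR FDR 0.0129) and with DESeq2 only (0.15, edgeR FDR 0.107). *Laptm4a* (0.0031, edgeR FDR 0.976) and *Laptm5* (−0.13, edgeR FDR 0.252), small transmembrane proteins of endosomes and lysosomes, were not called in either fit.

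Of the 8 channels and transporters, 3 were higher and 1 lower. *Slc36a1* (PAT1), which exports amino acids from lysosomes together with protons, lies on chromosome 11 (55204350 to 55236330, forward strand). It was at 139, 149, 119, 139 and 142 CPM in the YFP+ libraries and 99.7, 115, 96.2, 101 and 109 CPM in the YFP- libraries. All YFP+ libraries lay above all YFP- libraries (log2 fold change 0.40, SE 0.0699, edgeR FDR 0.00402). *Mcoln1* (TRPML1), a calcium channel of the lysosomal membrane, was at 57.3, 64.0, 58.6, 63.7 and 58.5 CPM in the YFP+ libraries and 50.1, 53.1, 55.1, 52.8 and 54.9 CPM in the YFP- libraries. The groups did not overlap but lay close, from 57.3 CPM upward against up to 55.1 CPM (log2 fold change 0.19, SE 0.0512, edgeR FDR 0.0346). Its edgeR FDR was 0.0514 to 0.154 without m6, m235 or m236 in YFP+ cells, m2, m6 or m235 in YFP- cells, or all cells of m2, m6, m235 or m236, and 0.0717 with total counts alone and 0.0861 without a filter on low counts. *Ostm1*, the partner of the chloride and proton exchanger encoded by *Clcn7*, was at 110.2, 117, 99.6, 120.1 and 114 CPM in the YFP+ libraries and 90.2, 97.8, 85.3, 105 and 94.7 CPM in the YFP- libraries. The groups overlapped in m234 against m235, and each animal had more in YFP+ cells (log2 fold change 0.25, SE 0.0669, edgeR FDR 0.0328). Its edgeR FDR was 0.0513 to 0.133 without m2, m6, m235 or m236 in YFP+ cells, m2, m6, m234 or m236 in YFP- cells, or all cells of m2, m6 or m236, and 0.0520 with total counts alone and 0.0521 without a filter on low counts. With the block, the edgeR FDR was 0.00715 for *Mcoln1* and 3.54e-04 for *Ostm1*.

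*Slc29a3* (ENT3), which moves nucleosides out of lysosomes, was lower in YFP+ cells. It was at 173, 167, 187, 149 and 173 CPM in the YFP+ libraries and 217, 206, 286, 184 and 197 CPM in the YFP- libraries. The YFP- library of m234, where microglia markers were highest, had the highest level, and the groups overlapped in m234 against m235 (log2 fold change −0.36, SE 0.109, edgeR FDR 0.0491). When it was dropped, the log2 fold change was −0.24 and *Slc29a3* was still called, while the edgeR FDR was 0.0551 to 0.154 without m2, m6, m235 or m236 in YFP+ cells, m2, m6 or m236 in YFP- cells, or all cells of m2, m6, m235 or m236. The call was also lost with upper-quartile factors (edgeR FDR 0.0566) and with limma-trend (adjusted p 0.0520), while with the block the edgeR FDR was 0.00102. The part of microglia in this result was not tested. *Slc38a9*, which senses arginine for mTORC1, was lower in each animal and called with the block only (−0.14, edgeR FDR 0.162, 0.0462 with the block). *Clcn7* (−0.061, edgeR FDR 0.661), the cystine exporter *Ctns* (0.084, edgeR FDR 0.574) and the lysophospholipid transporter *Spns1* (0.054, edgeR FDR 0.601) were not called in either fit. Whether the fold changes of *Clcn7* and its partner *Ostm1* differ was not tested.

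**Figure D3:**
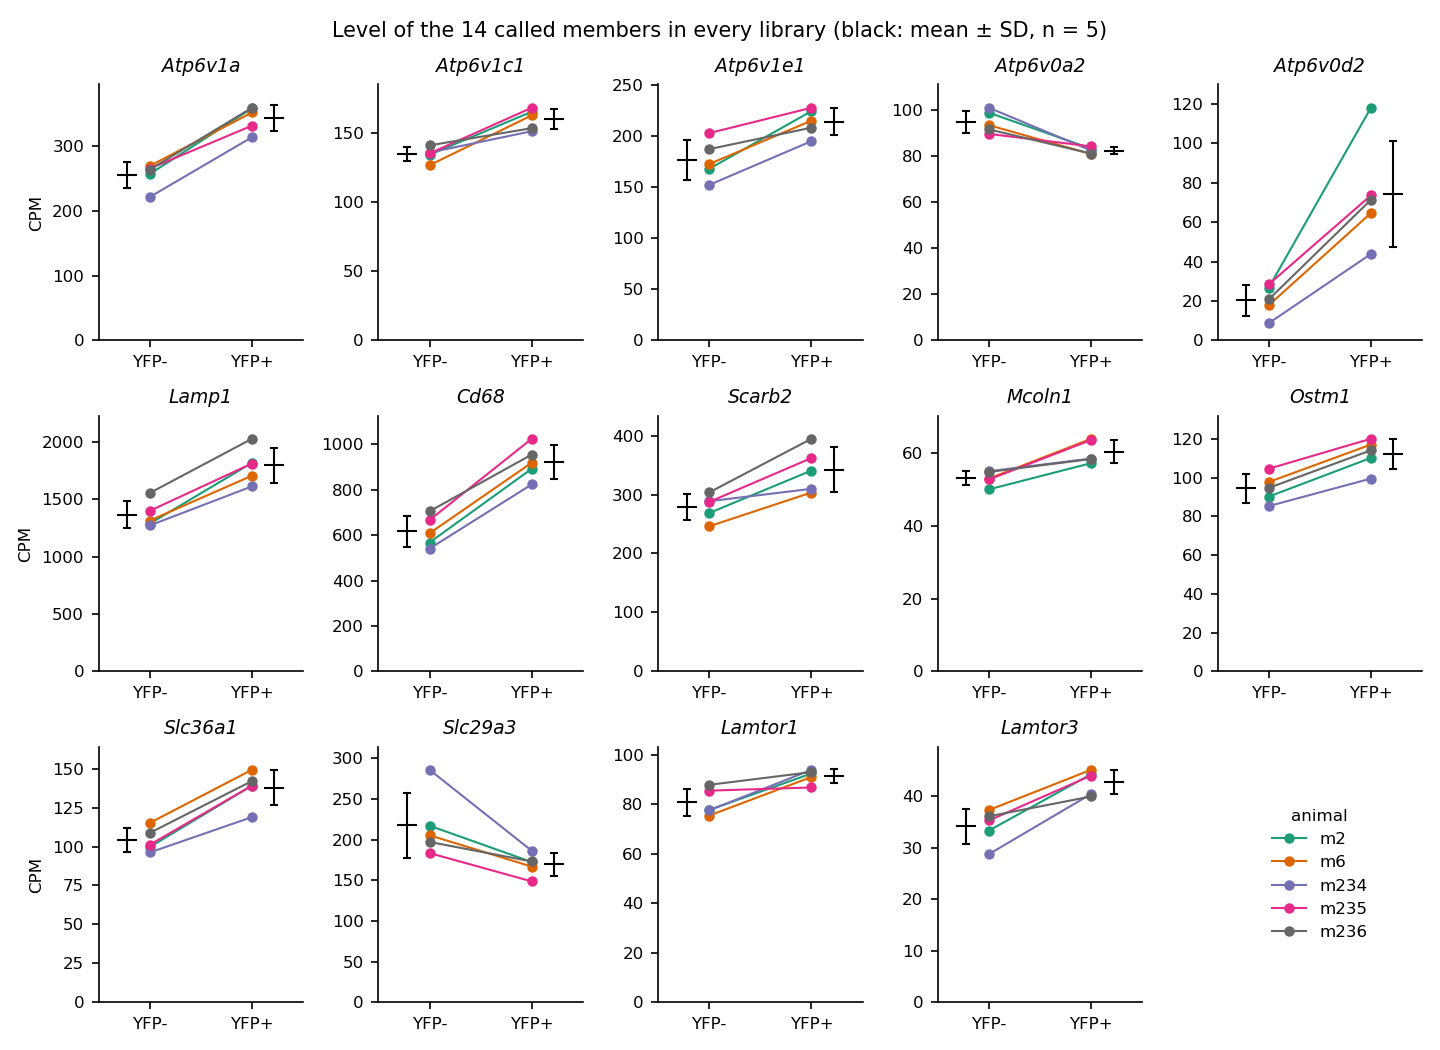
Level (CPM, from 0) of the 14 called members in every library. Lines join the libraries of an animal, and black marks give mean ± SD (n = 5). *Atp6v0a2* and *Slc29a3* are lower in YFP+ cells of every animal and the other 12 are higher.

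Of 31 other lysosomal membrane proteins, 30 were tested, and 12 were higher and 3 lower (16 and 4 with the block), with a median log2 fold change of 0.14. The count of higher genes was 4 without m2 or m6 in all cells and at least 8 in the other fits with a library or animal left out. That of lower genes was 0 without m2 in YFP+ cells or m2, m6 or m236 in all cells, and 1 without m6, m234, m235 or m236 in YFP+ cells, m6 or m236 in YFP- cells, or m235 in all cells. *Gpnmb*, a glycoprotein of phagocyte endosomes and lysosomes, had the largest change of the list. It was at 2024, 2038, 1652, 2588 and 2720.3 CPM in the YFP+ libraries and 859, 995, 689, 1289.8 and 1389 CPM in the YFP- libraries. Every YFP+ library had more than any YFP- library (log2 fold change 1.08, SE 0.193, edgeR FDR 0.00466). *Npc1*, which moves cholesterol out of the lysosome, was at 401, 377, 358, 393 and 392 CPM in the YFP+ libraries and 289, 302, 279, 291 and 303 CPM in the YFP- libraries, again without overlap (log2 fold change 0.39, SE 0.0513, edgeR FDR 8.86e-04). *Slc17a5*, an exporter of sialic acid (0.41, edgeR FDR 0.00596), and *Slc37a2*, a sugar phosphate transporter (0.46, edgeR FDR 0.00109), were higher too, and these 4 genes were called in all 15 fits with a library or animal left out.

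The glutamine exporter *Slc38a7* (0.41, edgeR FDR 0.0141), the membrane protein *Tmem106b* (0.40, edgeR FDR 0.00986) and *Glmp* (0.31, edgeR FDR 0.0112) were higher in YFP+ cells and lost the call only without both libraries of m2 or m6 (edgeR FDR 0.0714 and 0.0638, 0.0664 and 0.0545, and 0.0670 and 0.0689). The ion channel *Tpcn2* was higher (0.65, edgeR FDR 0.0149), with an edgeR FDR of 0.0564 to 0.0687 without all cells of m2, m6 or m236. *Abcd4*, which exports cobalamin, was higher (0.37, edgeR FDR 0.0163), with an edgeR FDR of 0.0547 to 0.0852 without all cells of m2, m6 or m235. The peptide and histidine transporter *Slc15a4* was the lower gene called in most of these fits (−0.43, edgeR FDR 0.0239), with an edgeR FDR of 0.0595 to 0.0940 without m2 in YFP+ cells, or all cells of m2, m6 or m236. The *Slc15a4* groups did not overlap. The remaining 3 higher and 2 lower genes lost their calls in 9 to 13 of the 15 fits with a library or animal left out. The potassium and proton channel *Tmem175* (0.25, edgeR FDR 0.0427) had an edgeR FDR of 0.0524 to 0.192 without m2, m6, m234 or m236 in YFP+ cells, m2, m6 or m236 in YFP- cells, or all cells of m2, m6 or m236. *Hgsnat*, which acetylates heparan sulfate (0.71, edgeR FDR 0.0414), had 0.0576 to 0.105 without m6 or m236 in YFP+ cells, m2, m234 or m235 in YFP- cells, or all cells of m2, m6, m235 or m236 (edgeR). For *Tmem9* (0.39, edgeR FDR 0.0278) it was 0.0534 to 0.135 without m2, m6, m235 or m236 in YFP+ cells, m6 or m236 in YFP- cells, or all cells of m2, m6, m235 or m236. Both lower genes had more in YFP- than in YFP+ cells without overlap of the groups. *Sidt2* (−0.16, edgeR FDR 0.0356) had an edgeR FDR of 0.0551 to 0.142 without m2, m6, m234, m235 or m236 in YFP+ cells, m2, m6, m235 or m236 in YFP- cells, or all cells of m2, m6, m235 or m236, and *Tmem55b* (−0.25, edgeR FDR 0.0488) of 0.0660 to 0.138 without m2, m6, m234, m235 or m236 in YFP+ cells, m6 or m236 in YFP- cells, or all cells of m2, m6, m235 or m236. With another scaling, tool or filter, calls were lost in 3 of these genes, *Tmem175* (edgeR FDR 0.0747 with total counts alone and 0.0917 without a filter on low counts), *Sidt2* (edgeR FDR 0.202 without a filter on low counts) and *Tmem55b* (edgeR FDR 0.0566 with upper-quartile factors, 0.0806 without a filter on low counts and 0.0512 with filterByExpr, and adjusted p 0.0518 in limma-trend).

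Ragulator, the scaffold of 5 small proteins on the lysosomal membrane, showed 2 members higher in YFP+ cells and none lower, and all 5 had more in YFP+ cells in each animal. *Lamtor3* was at 44.2, 45.1, 40.4, 43.9 and 39.9 CPM in the YFP+ libraries and 33.3, 37.3, 28.7, 35.2 and 36.0 CPM in the YFP- libraries. The YFP+ libraries of m236 and m234 were the lowest of their group and still lay above all YFP- libraries (log2 fold change 0.32, SE 0.0715, edgeR FDR 0.0148). Its edgeR FDR was 0.0873 or 0.0519 without both libraries of m2 or of m6, and the transcript of *Gm5900*, at 10.8 and 8.55 CPM, shares part of its sequence. *Lamtor1*, which anchors the complex in the membrane, was at 92.5, 91.0, 94.0, 86.8 and 93.0 CPM in the YFP+ libraries and 77.7, 75.5, 77.6, 85.5 and 87.9 CPM in the YFP- libraries. Its groups overlapped in m235 against m236, and its edgeR FDR was just inside the limit (log2 fold change 0.18, SE 0.0539, edgeR FDR 0.04997). It was 0.0700 to 0.194 without m2, m6, m234 or m236 in YFP+ cells, m2, m6 or m234 in YFP- cells, or all cells of m2, m6, m234 or m236, and 0.0145 with the block. The call was also lost in 4 of the 7 fits with another scaling, tool or filter (edgeR FDR 0.0504 with RLE factors, 0.0976 with total counts alone, 0.106 without a filter on low counts and 0.0564 with filterByExpr). Of its 50-base stretches, 25.6% occur in other transcripts, foremost *Lrrc51* at 0.194 and 0.209 CPM.

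*Lamtor2*, the most abundant regulator per kilobase with 106 ± 6.18 RPKM (SD, n = 5) in YFP+ and 83.9 ± 15.8 RPKM (SD, n = 5) in YFP- cells, was at 77.6, 76.6, 72.0, 84.6 and 76.6 CPM in the YFP+ libraries and 63.7, 59.6, 42.8, 69.4 and 72.3 CPM in the YFP- libraries. The YFP- library of m234 was the lowest of all, and the YFP+ library of m234 lay just below the YFP- library of m236, so that the groups overlapped (log2 fold change 0.32, SE 0.112, edgeR FDR 0.0789). *Lamtor2* was called with the block (edgeR FDR 0.00605), with DESeq2, and without the YFP- library of m234 (edgeR FDR 0.0467) or both libraries of m234 (edgeR FDR 0.0370). *Lamtor4* was called with the block only (0.18, edgeR FDR 0.119, 0.00787 with the block), and *Lamtor5* in neither fit (0.068, edgeR FDR 0.612). Reads of *Lamtor5* are uncertain, since 14.5% of its 50-base stretches occur in other transcripts, foremost *Gm15190* at 5.12 and 5.24 CPM.

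None of the 4 MiT/TFE factors, nor folliculin, was called without the block, and none was at an unadjusted p below 0.05 or with DESeq2 or limma-trend. *Tfeb* was at 32.9, 37.1, 40.8, 26.9 and 34.8 CPM in the YFP+ libraries and 34.5, 40.1, 44.3, 27.3 and 37.0 CPM in the YFP- libraries. Each animal had slightly less in YFP+ cells, and the groups overlapped over most of their range (log2 fold change −0.079, SE 0.131, edgeR FDR 0.727). *Tfe3* was at 111, 109, 108, 108 and 108 CPM in the YFP+ libraries and 118, 112, 124, 110.4 and 108 CPM in the YFP- libraries. Its YFP+ libraries were close to each other, with 30.1 ± 0.416 RPKM (SD, n = 5) against 31.6 ± 1.78 RPKM (SD, n = 5) in YFP- cells, and the YFP- libraries spread upward from about the same level (log2 fold change −0.071, SE 0.0480, edgeR FDR 0.349). *Mitf* was at 97.6, 86.7, 98.8, 106 and 88.5 CPM in the YFP+ libraries and 90.0, 89.2, 79.9, 101 and 95.0 CPM in the YFP- libraries, with overlapping groups (log2 fold change 0.066, SE 0.0728, edgeR FDR 0.580). *Tfec*, a member with expression mainly in macrophages, was at 72.3, 53.4, 47.2, 66.7 and 52.2 CPM in the YFP+ libraries and 47.9, 44.1, 31.8, 59.6 and 46.7 CPM in the YFP- libraries. Each animal had more in YFP+ cells, but levels differed between animals by more than between the group means (log2 fold change 0.33, SE 0.152, edgeR FDR 0.167). With the block its edgeR FDR was 0.00428, and it was the single member of this group called. Per kilobase, *Tfec* made up 41.4%, 35.0%, 31.1%, 39.8% and 34.6% of the summed 4 factors in the YFP+ libraries and 31.6%, 29.9%, 22.8%, 37.2% and 31.5% in the YFP- libraries. Folliculin (*Flcn*), which acts on the Rag GTPases that hold TFEB and TFE3 at the lysosome, was at 104, 121, 112, 108 and 107 CPM in the YFP+ libraries and 100.4, 123, 122, 114 and 115 CPM in the YFP- libraries. Its groups overlapped (log2 fold change −0.063, SE 0.0651, edgeR FDR 0.549). These are transcript levels, while the activity of TFEB and TFE3 is set largely by phosphorylation and transport into the nucleus, which counts do not measure.

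Of 27 genes of mTORC1, the Rag GTPases and other TFEB regulators, 26 were tested, and 3 were higher and 1 lower (7 and 3 with the block), with a median log2 fold change of 0.057. Dropping m235 in YFP+ cells gave 5 higher genes, and dropping m234 in YFP+ or in all cells gave 2 lower genes. Total counts alone and DESeq2 gave 2 lower genes too, and no filter on low counts gave 0. The gene added was *Rheb* (−0.14, edgeR FDR 0.0723, 0.0169 with the block), with an edgeR FDR of 0.0258 with total counts alone and an adjusted p of 0.0355 with DESeq2. With all cells of m2 or m6 dropped, 1 gene was higher and 0 lower. *Fnip2*, a partner of folliculin, was at 227, 298, 263, 255 and 249 CPM in the YFP+ libraries and 161, 212, 166, 186 and 184 CPM in the YFP- libraries. All YFP+ libraries lay above all YFP- libraries (log2 fold change 0.50, SE 0.0873, edgeR FDR 0.00388), and it was called in all 15 fits with a library or animal left out. *Tsc1* (0.21, edgeR FDR 0.0197) and *Tsc2* (0.24, edgeR FDR 0.0142), which together restrain mTORC1, were higher, and the Rag GTPase gene *Rraga* was lower (−0.22, edgeR FDR 0.0121), each without overlap between the groups. *Tsc2* and *Rraga* lost the call without both libraries of m2 or m6 (edgeR FDR 0.0545 and 0.0785, and 0.0641 and 0.0649), and *Tsc1* without m6 in YFP- cells, or all cells of m2, m6 or m236 (edgeR FDR 0.0515 to 0.0982). Without a filter on low counts, *Rraga* (edgeR FDR 0.0695) and *Tsc1* (edgeR FDR 0.0593) lost the call as well. The largest absolute change was that of *Rragd*, a gene at about 1 CPM that was called with the block (0.79, edgeR FDR 0.0692, 0.0130 with the block), with DESeq2, and without m235 in YFP+ cells, m234 in YFP- cells or all cells of m235 (edgeR FDR 0.0294, 0.0319 and 0.0481). *Bhlhe40*, the most abundant gene of the list per kilobase, was not called (−0.11, edgeR FDR 0.441).

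Because MiT/TFE factors bind E-boxes, the promoters of the members were searched for their core. RefSeq promoter windows (250 bases before to 50 after a start, GRCm38.p6) were at hand for 36 members with 47 windows. *Atp6v1b2*, *Atp6v1c1*, *Atp6v1g1*, *Atp6v1h*, *Atp6v0a2*, *Atp6v0d2* and *Lamtor3* had no entry. CACGTG and TCACGTGA read the same on both strands. CACGTG was in 10 of the 47 windows (21.3%), against 7.15% of all 32851 windows and 10.2% of those of tested genes. TCACGTGA, the inner part of the CLEAR element, which contains CACGTG, was in 6 windows (12.8%), against 0.974% of all windows and 1.90% of those of tested genes. CATGTG or its reverse complement CACATG, the M-box core, was in 5 windows (10.6%), against 14.2% and 8.75%. TCACGTGA was found for *Atp6v1a*, *Mcoln1* and *Slc36a1*, which were higher in YFP+ cells, for *Atp6v0d1* and *Atp6v0e*, which were called with the block only, and for *Clcn7*, which was not called. CACGTG without the longer motif was found for *Lamp1* and *Lamtor1*, which were higher, *Lamtor4*, called with the block only, and *Atp6v0b*, not called. The windows of *Atp6v1e1*, *Cd68*, *Scarb2* and *Ostm1*, which were higher, and of *Slc29a3*, which was lower, held no CACGTG. Over the 9027 tested genes with a window, 23 of 207 with TCACGTGA were higher (11.1%) and 12 lower (5.80%), against 7.89% and 6.87% of those without it. For CACGTG, 8.58% were higher and 7.67% lower with the motif, against 7.88% and 6.73% without it, and for the M-box core 11.4% and 6.25%, against 7.56% and 6.92%. Whether these shares differ was not tested. A match describes these letters in this window and is not a measured binding site. MiT/TFE factors are known to bind E-boxes of many lysosomal genes, so larger shares of CACGTG and TCACGTGA in members were foreseeable. The shares of windows rest on sequence alone and not on these libraries.

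The windows of 3 higher members with TCACGTGA, of *Lamp1* with 4 copies of CACGTG, and of *Clcn7*, which has the motif and was not called, are shown 5′ to 3′ on the strand of the gene, with CACGTG or TCACGTGA in capitals. The first TCACGTGA base lies at −132 from the start for *Atp6v1a*, −46 for *Mcoln1*, −4 for *Slc36a1* and 7 for *Clcn7*, where the first transcribed base is 1 and the base before it −1. These starts are those of the promoter windows. For *Atp6v1a* and *Mcoln1* they lie inside the gene bounds of the count table, as do both motifs, and for *Slc36a1* before them.
*Atp6v1a* (chr16:44139210-44139509, reverse strand): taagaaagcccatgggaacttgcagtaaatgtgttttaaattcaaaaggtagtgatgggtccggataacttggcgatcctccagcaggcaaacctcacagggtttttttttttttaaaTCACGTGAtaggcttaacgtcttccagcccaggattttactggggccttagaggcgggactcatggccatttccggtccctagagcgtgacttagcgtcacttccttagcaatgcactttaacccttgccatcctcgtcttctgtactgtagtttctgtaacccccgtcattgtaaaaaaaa
*Mcoln1* (chr8:3500269-3500568, forward strand): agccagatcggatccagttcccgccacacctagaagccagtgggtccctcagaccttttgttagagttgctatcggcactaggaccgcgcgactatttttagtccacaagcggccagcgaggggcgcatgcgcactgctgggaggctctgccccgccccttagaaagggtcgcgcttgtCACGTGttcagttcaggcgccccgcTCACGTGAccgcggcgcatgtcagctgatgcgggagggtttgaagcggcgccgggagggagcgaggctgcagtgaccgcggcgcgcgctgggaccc
*Slc36a1* (chr11:55204090-55204389, forward strand): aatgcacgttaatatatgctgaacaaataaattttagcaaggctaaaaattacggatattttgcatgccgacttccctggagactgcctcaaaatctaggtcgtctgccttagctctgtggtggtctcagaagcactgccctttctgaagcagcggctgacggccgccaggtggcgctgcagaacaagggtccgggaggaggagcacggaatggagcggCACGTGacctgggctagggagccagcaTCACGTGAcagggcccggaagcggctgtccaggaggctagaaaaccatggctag
*Lamp1* (chr8:13158911-13159210, forward strand): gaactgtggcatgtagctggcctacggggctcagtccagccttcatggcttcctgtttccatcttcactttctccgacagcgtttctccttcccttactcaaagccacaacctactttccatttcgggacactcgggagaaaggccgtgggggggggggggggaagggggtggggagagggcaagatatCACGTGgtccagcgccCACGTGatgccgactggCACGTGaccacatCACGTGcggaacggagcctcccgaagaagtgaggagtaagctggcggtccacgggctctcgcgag
*Clcn7* (chr17:25133141-25133440, forward strand): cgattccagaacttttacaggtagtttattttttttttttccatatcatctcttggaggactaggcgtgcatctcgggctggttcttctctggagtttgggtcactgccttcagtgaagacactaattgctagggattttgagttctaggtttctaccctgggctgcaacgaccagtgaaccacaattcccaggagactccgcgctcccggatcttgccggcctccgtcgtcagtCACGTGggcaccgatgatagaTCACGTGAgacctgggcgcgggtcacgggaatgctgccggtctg

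Markers of other cell types moved with the sort. Of 12 dendritic cell markers, 9 were tested and 6 were lower and none higher, with none higher at an unadjusted p below 0.05 or with DESeq2 or limma-trend. Among them were *Flt3* (log2 fold change −3.59, edgeR FDR 2.40e-04) and *Zbtb46* (−1.65, edgeR FDR 0.00408). Their summed level was 34.1, 26.5, 37.1, 19.7 and 23.3 CPM in the YFP+ libraries and 70.0, 42.7, 121, 39.4 and 40.5 CPM in the YFP- libraries. The block called 7 lower, with *Siglech* added, a gene that is in the microglia list below as well and was also called without m235 in YFP- cells (edgeR FDR 0.0388). Of 9 homeostatic microglia markers, none was called in either direction, 6 were lower and none higher at an unadjusted p below 0.05, DESeq2 called 2 lower and limma-trend none, edgeR called 4 lower without a filter on low counts and 1 with total counts alone, and 8 were lower with the block. When m235 was dropped, 6 were lower (in YFP- cells only) or 2 (in all cells). Their summed level was 326, 305, 331, 159 and 352 CPM in the YFP+ libraries and 611, 344, 1493, 219 and 414 CPM in the YFP- libraries. Of 8 markers of border-associated macrophages, 4 were tested and 2 were higher, *Mrc1* (1.16, edgeR FDR 0.0320) and *Pf4* (1.88, edgeR FDR 0.00324), while *Cd163*, *Lyve1*, *Folr2* and *Cbr2* did not pass the filter. The block called all 4. For *Mrc1*, the edgeR FDR was 0.0527 to 0.113 without m2, m6 or m236 in YFP+ cells, m6, m234, m235 or m236 in YFP- cells, or all cells of m6, m235 or m236. Their summed level was 1244, 1319.7, 808, 1342 and 1612 CPM in the YFP+ libraries and 696, 856, 415, 871 and 980.4 CPM in the YFP- libraries, most of it from *F13a1* (0.78, edgeR FDR 0.0511), which was called with DESeq2, upper-quartile factors (edgeR FDR 0.0499) or no filter on low counts (edgeR FDR 0.0262), and without m234 in YFP+ cells, m234 or m236 in YFP- cells, or all cells of m234 (edgeR FDR 0.0268, 0.0485, 0.0457 and 0.00855). Of 8 monocyte markers, 1 was higher, *Lyz2* (0.65, edgeR FDR 0.00764), and 3 were lower, among them *Ccr2* (−1.12, edgeR FDR 0.00339) and *Plac8* (−2.19, edgeR FDR 7.45e-04). With the block 2 were higher and 4 lower. Their summed level was 17549.6, 16162, 14666, 14624 and 21949 CPM in the YFP+ libraries and 11662, 12205, 9559, 13709 and 17364 CPM in the YFP- libraries, most of it from *Lyz2*, whose edgeR FDR was 0.0516 and 0.0534 without both libraries of m2 and m6. None of the markers in these 4 lists was at 0 in every library.

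Of 9 macrophage markers, which check the cell type of the sort, all were tested and 2 were higher, *Mertk* (0.42, edgeR FDR 0.0327) and *Itgam* (0.35, edgeR FDR 0.0385), with none lower. At an unadjusted p below 0.05, 2 were lower, and DESeq2 and limma-trend called 1 and 0 lower. With the block, 3 were higher and 4 lower, among them *Cx3cr1*, whose protein was used in the sort and which had the largest change of the list (−1.01, edgeR FDR 0.153, 9.24e-05 with the block). Of these 4, *Ptprc* was also called lower with total counts alone (edgeR FDR 0.0334), where 1 marker was higher and 1 lower, and with DESeq2 (adjusted p 0.0225). The same gene was called lower without m234 in YFP+ or m236 in YFP- cells (edgeR FDR 0.0445 and 0.0380), and *Fcgr1* without m235 in YFP+ or in all cells (edgeR FDR 0.0370 and 0.0478). Among the higher ones, *Adgre1* (0.32, edgeR FDR 0.0597, 9.35e-04 with the block) was also called with DESeq2, without a filter on low counts (edgeR FDR 0.0443), and without m235 in YFP+ or in all cells (edgeR FDR 0.0252 and 0.0389). The summed level was 7468, 7990.4, 7979, 7731 and 7788 CPM in the YFP+ libraries and 7744, 8098, 8830.4, 7775 and 7914 CPM in the YFP- libraries. The edgeR FDR of *Mertk* was 0.0542 to 0.137 without m6, m235 or m236 in YFP+ cells, m2, m6 or m235 in YFP- cells, or all cells of m2, m6, m235 or m236, and that of *Itgam* 0.0607 to 0.154 without m2, m6 or m235 in YFP+ cells, m2, m6, m234 or m236 in YFP- cells, or all cells of m2, m6 or m236, and 0.0540 with total counts alone. The sort removed CD3 and Ly6G, and *Cd3d*, *Cd3e*, *Cd3g* and *Ly6g* did not pass the filter. Of 12 T and NK cell markers only *Il7r* was tested, and it was higher (0.90, edgeR FDR 0.00961). Their summed level was 203, 202, 235.9, 334 and 183 CPM in the YFP+ libraries and 108, 123, 100.2, 179 and 119 CPM in the YFP- libraries, with *Il7r* the most abundant per kilobase. Of 12 neutrophil markers, 4 were tested and *S100a9* was lower (−3.40, edgeR FDR 0.00977), as in the 9 of 15 fits with a library or animal left out in which it passed the filter. Their summed level was 331, 361, 302, 435 and 453 CPM in the YFP+ libraries and 263, 318, 328, 334 and 372 CPM in the YFP- libraries. With the block, 2 were higher, *Mmp8* (0.84, edgeR FDR 0.0878, 4.23e-05 with the block) and *S100a8* (0.23, edgeR FDR 0.560, 0.0154 with the block), and 2 lower, *S100a9* and *Csf3r* (−0.34, edgeR FDR 0.175, 0.00329 with the block). *Mmp8* was also called higher without m234 in YFP+ or in all cells (edgeR FDR 0.0459 and 0.0398). Of 9 B and plasma cell markers, 3 were tested and *Ighm* (−1.91, edgeR FDR 0.00300) and *Jchain* (−2.87, edgeR FDR 0.0184) were lower. The summed level was 10.9, 10.4, 11.3, 5.03 and 13.3 CPM in the YFP+ libraries and 38.2, 25.5, 52.6, 19.6 and 29.3 CPM in the YFP- libraries, with *Ighm* the most abundant per kilobase. Of 6 tested markers of oligodendrocytes, 3 of astrocytes and neurons and 5 of the cell cycle, edgeR without the block and limma-trend called none, DESeq2 called 2, 0 and 0, and 2, 0 and 2 passed an unadjusted p below 0.05. With the block, 1 oligodendrocyte marker was higher and 2 lower, 1 cell cycle marker was higher and 2 lower, and none of astrocytes and neurons was called. When m234 was dropped, 2 oligodendrocyte markers were higher (in YFP- cells only) or 1 (in all cells). The part of these cell types in the changes of the lysosomal members was not tested.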

How the data were processed

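Bulk RNA-seq counts per gene of 10 libraries were used as deposited by the authors, whose processing notes name STAR 2.7.10b, Picard and GRCm38/mm10; whether reads were counted by strand was not stated in what was used here. Library totals ranged from 8396863 to 35455643 counts. In R 4.3.3, genes above 1 CPM in 3 or more libraries were kept, with TMM library sizes and the quasi-likelihood test of edgeR 4.0.16 (Benjamini-Hochberg adjustment over all 13740 tested genes, FDR below 0.05). A prior count of 2 was used only for log2 levels in limma-trend and in the correlations of residuals. The labels give 1 library of each group per animal. Residuals of the 2 libraries of an animal had correlations of 0.361 to 0.664, against at most 0.0675 between animals, so counts from a fit with the animal as a block are given where they differ from those without it. Alternatives were RLE and upper-quartile factors, total counts alone, DESeq2 1.42.0, limma-trend (limma 3.58.1), no filter, filterByExpr, a limit of 1 on the absolute log2 fold change, and leaving out each library or animal. None of these alternatives used the block. The procedure was tested on simulated data. Levels per kilobase use merged exon lengths. Sequence sharing with other transcripts was counted over 50-base stretches. All members were accounted for, and every library value was given for called members, the most abundant member of each class and the MiT/TFE factors. From each other list, genes past the test could be named, as could those most abundant or most changed. *Atp6v0d1*, *Cd63* and *Flcn*, given in every library, were chosen after their values were seen. The members and lists were chosen with earlier results of these data known. Some genes are not reported here.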

Additional observations from a re-analysis of the deposited data

Results flagged for a closer look

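In 126 groups of 5 libraries (library totals, member levels, isoform shares and summed markers), the highest or lowest library lay far from the other 4 in 11, where chance gives about 1 in 20. The gap to the nearest library was then more than 0.71 of the range of the group. None of these values was explained or tested further.

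The library total of the YFP- library of m234 was 8396863 counts, against 28212174 to 35455643 in the other 4. The same library was low for *Atp6v1a* at 221 CPM, against 257 to 269 CPM, and for *Atp6v0d1* at 139.7 CPM, against 171 to 181 CPM. It was high for the summed oligodendrocyte and myelin markers at 202 CPM, against 140.1 to 156 CPM. In the YFP+ library of m234, *Atp6v1h* was low at 68.5 CPM, against 77.9 to 81.0 CPM. *Atp6v0e* was high in the YFP+ library of m235 at 165 CPM, against 127 to 137 CPM. *Clcn7* was low in the YFP+ library of m2 at 276 CPM, against 308 to 321 CPM. *Spns1* was high in the YFP- library of m6 at 53.9 CPM, against 46.6 to 48.6 CPM. The summed homeostatic microglia markers were low in the YFP+ library of m235 at 159 CPM, against 305 to 352 CPM. The summed T and NK cell markers were high in the YFP- library of m235 at 179 CPM, against 100.2 to 123 CPM. The summed cell cycle markers were high in the YFP- library of m2 at 115 CPM, against 66.0 to 77.6 CPM.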

How the results depend on the processing

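With the block, 4826 genes were called, 2307 higher and 2519 lower, with 21 members higher (8 V-ATPase members and 5 regulators) and 2 membrane proteins lower. With a limit of 1 on the absolute log2 fold change, 199 genes were called by edgeR, 77 higher and 122 lower. Of the members, 1 was then higher, a V-ATPase member, with 0 membrane proteins and 0 regulators, and 0 members were lower, with 0 in the V-ATPase and membrane classes. Total counts alone gave 1282 genes lower, 7 members higher, 3 membrane proteins higher and 1 regulator higher, and DESeq2 1307 genes lower. Upper-quartile factors and limma-trend gave 1 member and 0 membrane proteins lower. Without a filter, 1 member and 0 V-ATPase members were lower. RLE factors, no filter and filterByExpr each gave 1 regulator higher. Medians of the V-ATPase, membrane protein and regulator classes moved by less than their spread between animals in every fit. This does not hold for the V1 and V0 sectors or the whole set with total counts alone. The cause of these shifts was not tested.

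Without single libraries or animals, 644 to 1948 genes were called, 360.0 to 1037 higher and 284 to 911 lower. Members higher numbered 4 to 14 (V-ATPase 2 to 5, membrane proteins 2 to 7, regulators 0 to 2) and members lower 0 to 2 (V-ATPase 0 to 1, membrane proteins 0 to 1, regulators 0). Groups did not overlap in 8 to 15 higher and 1 to 3 lower members, against 6.66% to 10.8% and 5.86% to 9.51% of all tested genes. These fits hold fewer samples and no block.

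The sign turned only in members that were not called. With total counts alone, log2 fold changes were −0.0098 for *Atp6v1d*, −0.035 for *Atp6v1f*, −0.028 for *Tcirg1* and −0.037 for *Laptm4a*. Without single libraries or animals, they were −0.0012 to 0.059, −0.0093 to 0.034, −0.0092 to 0.029 and −0.013 to 0.030 in these 4 and −0.20 to 0.00090 for *Atp6v0a1*. The cause was not tested. Apart from the calls named in the report, the block changed no call of a member.

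In simulated data with 5 libraries per group, edgeR recovered 97 of 100 genes made to change by 1 on the log2 scale and 68 of 100 made to change by 0.5, with 12 false calls, and smaller changes were not simulated. Simulated libraries had no animal effect, and their spread followed the trend over genes of like level. Only genes with enough counts were made to change. The recovery therefore need not hold for these paired libraries. All libraries of a group came from 1 disease stage and from males. The number of sorted cells differed with the group and cannot be told apart from the sort. Transcript levels say nothing about pump assembly, luminal pH or TFEB location.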
